A study of Gallus gallus with 3 samples.

Results

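Kinesins, cytoplasmic dynein chains and tubulins were followed across neural crest cells (NCC) of chicken embryos. The members and their classes were chosen with earlier results of these data known. The members were taken by the gene symbol of the platform annotation, a rule that does not itself read the measured values. It takes KIF with a number, KLC, DYNC, DYNLL, DYNLT, TUBA, TUBG, and TUBB with a number, without TUBB3. This gave 61 of 13009 named genes, carried by 146 of 38439 probe sets. A probe set gives 1 signal for a transcript, and of several probe sets of a gene the brightest by mean log2 signal stands for it. The classes used here hold 10 mitotic kinesins, 8 axonal transport kinesins, 2 kinesin light chains, 3 kinesins of organelles and vesicles, 5 ciliary and Hedgehog kinesins, 5 other kinesins, 5 chains of cytoplasmic dynein 1, 3 dynein light chains, 2 chains of dynein 2, 6 alpha-tubulins, 5 beta-tubulins and 5 members of the gamma-tubulin complex. The other 2 members are KIF1BP, which encodes a kinesin-binding protein and no motor, and KIF20AL.

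The study compared NCC that are migrating with NCC that are settling into ganglia. White leghorn chicken embryos were dissected, and cells carrying the HNK1 surface epitope, which marks NCC, were isolated with magnetic beads. RNA of pooled embryos was measured on Affymetrix chicken genome arrays, and 3 arrays were used here. The first is of HH9 embryos (HH is the Hamburger and Hamilton stage of development), which the study's methods describe as cranial NCC and the source name as trunk, and the others are the trunk NCC (tNCC) arrays titled HH16 and titled HH19. On each tNCC array the title and the age field name opposite stages, and they are named here by title as HH16-titled and HH19-titled tNCC. The study's text places neuronal genes such as ISL1 and ELAVL4 higher at HH19, whereas both had a lower signal in HH19-titled than in HH16-titled tNCC, so the titles run against the study's direction and the age field runs with it. Read by the age field, the stage names of the tNCC arrays change places and each ratio between them changes sign. Which label is right is not settled here. With 1 array per group there is no p-value, and the number of arrays limits the precision. Axial level, stage and dissection differ together between HH9 NCC and the tNCC arrays and cannot be told apart.

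Microtubules are polymers of alpha- and beta-tubulin that grow from sites where gamma-tubulin seeds them. Most kinesins walk towards the growing end and carry cargo outwards along an axon, and cytoplasmic dynein carries cargo back towards the cell body. A separate set of kinesins builds the spindle, moves chromosomes and completes cell division. In NCC both kinds of work occur, because the cells divide while they migrate and some of their descendants become neurons with long axons.

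The signals are MAS5 values on a linear scale. A floor of 99.8, the 40th percentile of all signals, was set under them, so that where 1 of a pair of signals lay below it, the fold is the least it can be, and "at least N-fold" is written. No fold was formed where both signals lay under it. Of the 61 members, 52 lay at or above the floor on all 3 arrays, 3 on 2 arrays and 6 on none, which left 55 members with a fold in each comparison. The 6 members under the floor on all 3 arrays were KIF6, KIF9, KIF12, KIF20AL, KIF21B and KIF27. As a rough scale for the ratios, the log2 ratios of different probe sets of the same gene were compared over all genes. Their SD was 0.30 for HH19-titled over HH16-titled tNCC, 0.34 for HH16-titled tNCC over HH9 NCC and 0.32 for HH19-titled tNCC over HH9 NCC. This SD is that of single probe sets with both signals at or above the floor. It is not the error of a class median, and it holds no spread between preparations. Class medians are set beside it for scale only. The 3 comparisons share their arrays and are therefore not independent of each other.

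NCC markers were present on all 3 arrays. Of 10 NCC markers, 10 lay at or above the floor in HH9 NCC, 9 in HH16-titled tNCC and 10 in HH19-titled tNCC. SOX10, a factor that defines NCC, had signals of 12315, 15746 and 17338. The 10 markers summed to 41206, 35858 and 36228 and did not all follow SOX10. In HH16-titled tNCC, 4 of them (SNAI2, ETS1, SOX9 and SOX8) were at least 2-fold lower than in HH9 NCC, as were 3.2% of all genes. At least 2-fold higher there was 1 marker, NGFR, and 6.8% of all genes. In HH19-titled tNCC, 2 (SNAI2 and SOX8) were at least 2-fold lower than in HH9 NCC, with 2.58% of all genes, and 0 were higher. Between the tNCC arrays, 1 marker (SOX9) was at least 2-fold higher in HH19-titled tNCC and 1 (SOX8) at least 2-fold lower. Of all genes, 1.54% and 1.93% were. The 9 neuronal markers on the array had a summed signal of 6357 in HH9 NCC, 26867 in HH16-titled tNCC and 10063 in HH19-titled tNCC, of which TUBB3 gave 5174, 9983 and 4477. The 11 markers of blood, somite, vessel, neural tube, notochord and epithelium on the array summed to 1791, 2066 and 5809, with 6, 7 and 9 of them at or above the floor. Between the tNCC arrays, all 9 of them with a fold were higher in HH19-titled tNCC. At least 2-fold higher were 5, and 1.54% of all genes. These were the neural tube markers PAX6, OLIG2 and SOX1, the vessel marker CDH5 and the epithelial marker CDH1. PAX6 and OLIG2 had signals of 1965 and 1752 in HH19-titled tNCC, against 362 and 530.2 in HH16-titled tNCC. CDH5 and CDH1 had 346 and 264 in HH19-titled tNCC, against 86.0 and 122 in HH16-titled tNCC. The muscle factors MYOD1 and MYF5 lay under the floor on all 3 arrays. What part these cell types had in the results was not tested.

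Within the trunk, 9 of the 10 kinesins classed here as mitotic had a higher signal in HH19-titled than in HH16-titled tNCC, where 52.0% of all genes did. A lower one was found for 6 of 7 axonal transport kinesins, 5 of 5 dynein 1 chains and 4 of 5 beta-tubulins, and for 48.0% of all genes. Past the SD between probe sets, in either direction, lay 7 of the 10 mitotic kinesins and 2 of the 7 axonal ones. Of the dynein 1 chains 3 of 5 did, and of the beta-tubulins 4 of 5. A 2-fold difference was reached by 1 member, the beta-tubulin gene TUBB2A. Of the 55 members, 0 reached 2-fold higher in HH19-titled tNCC, as 1.54% of the 10681 genes with a fold did. TUBB2A was the 1 member at least 2-fold lower, which is 1.82% of the members and was reached by 1.93% of all genes. The members as a whole thus differed by 2-fold no more often than other genes did. Their median log2 ratio of HH19-titled over HH16-titled tNCC was -0.04, and that of all genes was 0.02. Of the 55 members, 27 (49.1%) differed by more than the SD between probe sets, as did 36.7% of all genes.

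**Figure D1:**
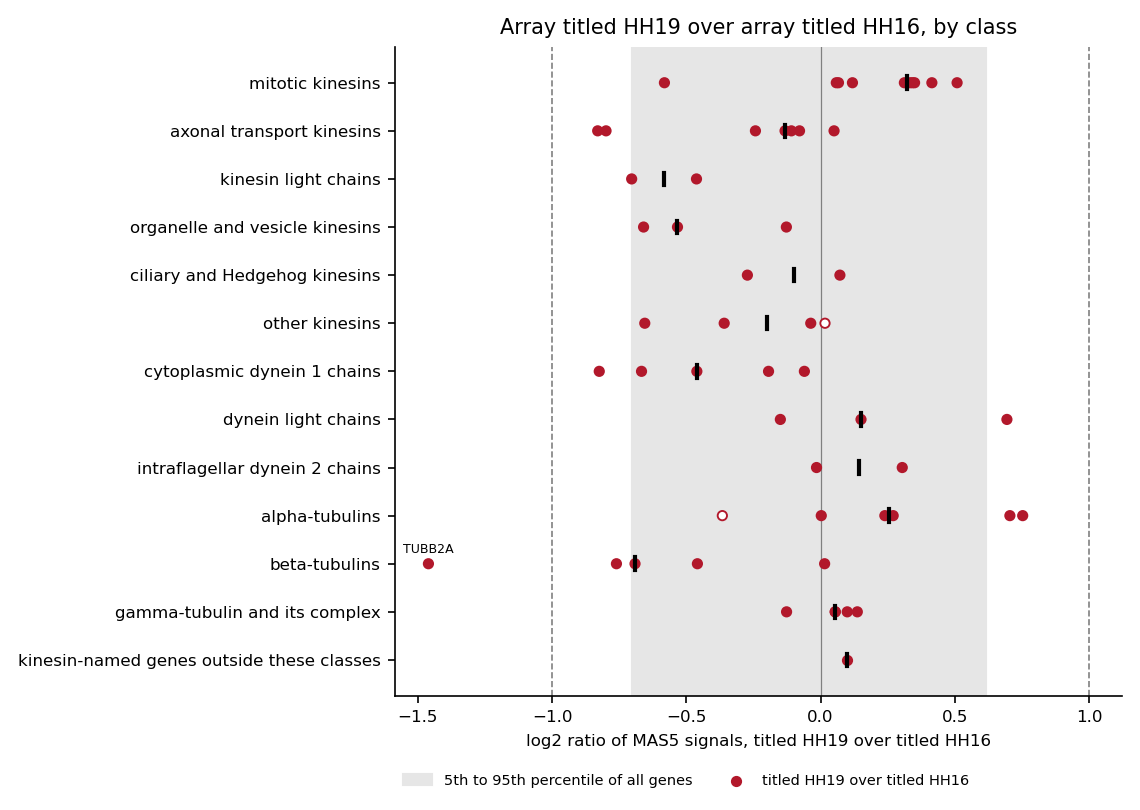
The x axis gives the log2 ratio of MAS5 signals, HH19-titled over HH16-titled tNCC, for the 55 members with a fold, by class. Each point is 1 gene, open points are lower bounds, black ticks are class medians, the grey band spans the 5th to the 95th percentile of all genes and dashed lines mark 2-fold. TUBB2A, at -1.46, is the only member past 2-fold.

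All 10 mitotic kinesins lay above the floor on all 3 arrays. KIF11 (Eg5), which pushes the spindle poles apart, had signals of 2470.0 in HH9 NCC, 2816 in HH16-titled tNCC and 3570.4 in HH19-titled tNCC. KIF23, a motor of the central spindle needed for cytokinesis, had 5059, 4179 and 4538. KIF4B, which the reference table also lists as KIF4A, is a chromosome-bound kinesin, and it had 6832, 6573 and 8283. These 3 genes spanned less than 1.5-fold over the arrays. KIF20A, a kinesin of late mitosis, had signals of 3764 in HH9 NCC, 2302 in HH16-titled tNCC and 3276 in HH19-titled tNCC. It was thus dimmest in HH16-titled tNCC, by 1.42-fold against HH19-titled tNCC and 1.63-fold against HH9 NCC. Its other probe set had the same order, with a log2 ratio of -1.09 for HH16-titled tNCC over HH9 NCC. KIF2C, a microtubule depolymerase at kinetochores, had 1685, 1164 and 1446 and was also dimmest there. Its 4 probe sets did not all share this order, since 1 had 410.1, 422 and 318.

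Of the 10 mitotic kinesins, 9 had a higher signal in HH19-titled tNCC than in HH16-titled tNCC, as did 52.0% of all genes. The median log2 ratio was 0.32, close to the SD of 0.30 between probe sets of a gene. In either direction, 7 of the 10 lay past that SD, KIF14 among them on the lower side, and 36.7% of all genes did. Of the 10, 0 reached 2-fold. The ratios of the 9 ran between 0.06 for KIF18B, which acts on astral microtubules, and 0.51 for KIF20A. Taking the median of a gene's probe sets, 8 of 10 were higher, the median was 0.19 and 4 of 10 lay past the SD, again with KIF14 on the lower side. For KIF20B, a kinesin of cytokinesis, all 4 probe sets with a fold were higher in HH19-titled tNCC, with log2 ratios between 0.34 and 0.54. For KIF4B, 2 of 3 probe sets were higher and the other was at -0.04. KIF14, which works with citron kinase at the end of division, was the exception. It had signals of 107 in HH19-titled tNCC and 160 in HH16-titled tNCC, and its log2 ratio was -0.58. All 3 of its probe sets were lower in HH19-titled tNCC. These counts depend on the class, which was set with earlier results of these data known. KIF2A, a depolymerase of spindle poles, and its relative KIF2B are counted among the other kinesins. Their log2 ratios of HH19-titled over HH16-titled tNCC were -0.36 and -0.65, with the dimmer probe set of KIF2A at 0.01.

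Against HH9 NCC, 9 of 10 mitotic kinesins were lower in HH16-titled tNCC, with a median log2 ratio of -0.23, and 7 of 10 were lower in HH19-titled tNCC, with a median of -0.08. Of all genes, 50.7% and 49.9% were lower in these comparisons, and 62.9% and 60.7% with each array centred on its median, where the counts of mitotic kinesins were again 9 and 7. Without centring both medians are smaller than the SD between probe sets, and with the median of a gene's probe sets 7 of 10 were lower in HH16-titled tNCC. KIF11 was the 1 mitotic kinesin with a higher signal in HH16-titled tNCC than in HH9 NCC. KIF14 had a log2 ratio of -1.01 for HH19-titled tNCC over HH9 NCC, just past 2-fold. Its other probe sets had -0.28 and 0.30, so this difference rests on the probe set used. The remaining mitotic kinesins were KIF15, a spindle motor that works beside KIF11, KIF18A, which dampens chromosome movements at the metaphase plate, and KIF18B. Their log2 ratios lay between -0.41 and 0.35 in the 3 comparisons.

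Of 23 other genes of the spindle on the array, 18 were higher in HH19-titled tNCC than in HH16-titled tNCC and 5 were lower. Of all genes, 52.0% and 48.0% were. The median log2 ratio was 0.14, and 0 differed by 2-fold. In either direction, 5 of the 23 (21.7%) lay past the SD between probe sets, a smaller share than the 36.7% of all genes. Among these 5 was CENPE on the lower side, at -0.42. CENPE and KIFC1, the latter at 0.03, are also kinesins of mitosis. Their symbols fall outside the rule for members, so the counts of mitotic kinesins do not hold them. The kinase gene CDK1, which drives entry into mitosis, had signals of 17276 in HH9 NCC, 13410.3 in HH16-titled tNCC and 16679 in HH19-titled tNCC. Against HH9 NCC, ECT2, an activator of the cleavage furrow, was 2-fold or more higher in HH19-titled tNCC, with signals of 963 and 420 and a log2 ratio of 1.20. It was the 1 gene of the 23 past 2-fold in any comparison. Whether the share of dividing cells differed between the preparations was not tested, and in bulk RNA fewer cells of a type and less RNA per cell cannot be told apart.

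**Figure D2:**
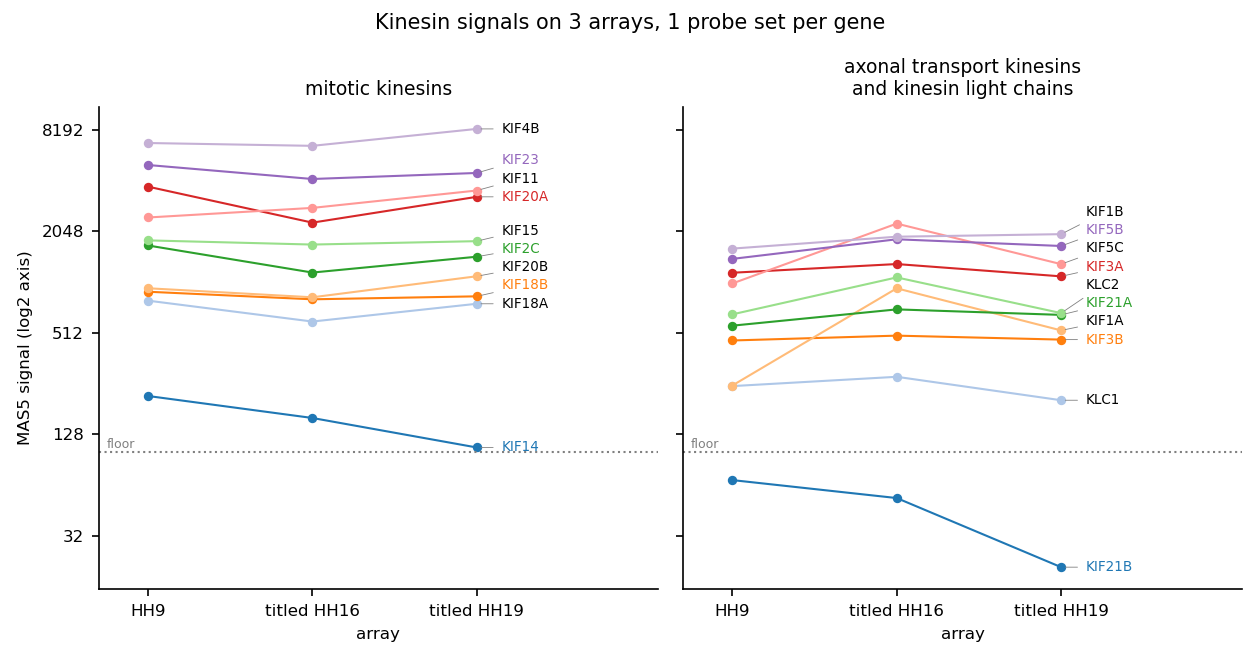
The y axis gives the MAS5 signal on a log2 axis in HH9 NCC, HH16-titled tNCC and HH19-titled tNCC, with 1 line per gene, for mitotic kinesins (left) and for axonal transport kinesins with kinesin light chains (right). The dotted line is the floor. Of the mitotic lines, KIF14 falls from HH9 NCC to HH19-titled tNCC, KIF20A is lowest in HH16-titled tNCC and the others are flatter. KIF1A, KIF5C and KLC2 peak in HH16-titled tNCC.

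Of the 7 axonal transport kinesins above the floor, only KIF1A and KIF5C differed between the tNCC arrays by more than the SD between probe sets. Of all genes, 36.7% did. The differences past 2-fold were those of KIF1A and KIF5C against HH9 NCC. KIF1A, which carries synaptic vesicle precursors, had signals of 249 in HH9 NCC, 939 in HH16-titled tNCC and 528 in HH19-titled tNCC. It was 3.77-fold higher in HH16-titled tNCC and 2.12-fold higher in HH19-titled tNCC than in HH9 NCC, and the difference of HH19-titled tNCC was under 2-fold with each array centred on its median. Between the tNCC arrays its log2 ratio of HH19-titled over HH16-titled tNCC was -0.83. The 6 probe sets of KIF1A showed the same order of the tNCC arrays. All 6 were lower in HH19-titled tNCC, with log2 ratios between -1.25 and -0.14, and all 6 were higher in HH16-titled tNCC than in HH9 NCC.

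KIF5C, the neuronal form of conventional kinesin, had signals of 1003 in HH9 NCC, 2272 in HH16-titled tNCC and 1306 in HH19-titled tNCC. It was 2.27-fold higher in HH16-titled tNCC than in HH9 NCC. Its log2 ratio was 0.38 for HH19-titled tNCC over HH9 NCC and -0.80 for HH19-titled over HH16-titled tNCC. Of 3 probe sets with a fold, 2 were lower in HH19-titled tNCC than in HH16-titled tNCC and the other was at 0.08. All 3 were higher in HH16-titled tNCC than in HH9 NCC.

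On the probe sets used, the widely expressed members of the class differed far less. KIF5B, the general form of conventional kinesin, had 1403 in HH9 NCC, 1834 in HH16-titled tNCC and 1674 in HH19-titled tNCC. KIF1B, which carries mitochondria and vesicles, had 1615, 1899.5 and 1967. Its 4 probe sets with a fold had log2 ratios between -0.02 and 0.59 within the trunk. For HH19-titled tNCC over HH9 NCC they lay between -0.17 and 0.60. KIF3A and KIF3B form a motor of axons and cilia, and KIF21A acts at growing microtubule ends. The log2 ratios of KIF3A, KIF3B and KIF21A lay between -0.24 and 0.32 in the 3 comparisons, all within the SD between probe sets. Dimmer probe sets passed it, with 1 of KIF3A at -0.39 within the trunk. For KIF3B, 1 had -0.50 within the trunk and -0.63 for HH19-titled tNCC over HH9 NCC. KIF21B, a neuronal relative of KIF21A, lay under the floor on all 3 arrays.

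Of the 7 axonal transport kinesins with a fold, 6 were lower in HH19-titled tNCC than in HH16-titled tNCC, and 48.0% of all genes were. The median log2 ratio was -0.13, and 0 were lower by 2-fold. Past the SD between probe sets lay 2 of the 7, and 36.7% of all genes. All 7 were higher in HH16-titled tNCC than in HH9 NCC, with a median of 0.32, and 6 of 7 were higher in HH19-titled tNCC than in HH9 NCC, with a median of 0.25. With each array centred on its median, 6 of 7 and 5 of 7 were higher than in HH9 NCC, where 37.1% and 39.3% of all genes were, against 49.3% and 50.1% without centring. With the median of a gene's probe sets 5 of 7 and 6 of 7 were higher. The medians of this class and of the mitotic kinesins thus had opposite signs in each comparison, 0.32 for the mitotic kinesins and -0.13 for the axonal ones within the trunk. Without centring, only the mitotic median within the trunk was larger than the SD between probe sets, at 0.32 against 0.30. The other medians of both classes were smaller than it. Neuronal markers moved the same way as the axonal kinesins. Of 9 neuronal markers, 8 were lower in HH19-titled tNCC than in HH16-titled tNCC, with a median of -1.16, and 5 of them by 2-fold or more. Of all genes, 48.0% were lower and 1.93% by 2-fold or more. ELAVL4, a neuronal RNA-binding protein, had signals of 114 in HH9 NCC, 2517 in HH16-titled tNCC and 988 in HH19-titled tNCC. The part of neuronal content in the kinesin differences was not tested.

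The kinesin light chains, which link conventional kinesin to its cargo, were brightest in HH16-titled tNCC. KLC2 had signals of 658 in HH9 NCC, 1089.5 in HH16-titled tNCC and 669 in HH19-titled tNCC. KLC1 had 247, 280.3 and 204 on the same arrays. Their log2 ratios of HH19-titled over HH16-titled tNCC were -0.70 for KLC2 and -0.46 for KLC1, both past the SD between probe sets and short of 2-fold. All 3 probe sets of KLC1 were lower in HH19-titled tNCC, whereas the other probe set of KLC2, at 116, 113 and 121, had a log2 ratio of 0.10.

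The 3 kinesins of organelles and vesicles were lower in HH19-titled tNCC than in HH16-titled tNCC, as were 48.0% of all genes. KIF13A and KIF13B, which carry membrane vesicles, had log2 ratios of -0.53 and -0.66. KIF16B, a motor of early endosomes, had signals of 356 in HH9 NCC, 423 in HH16-titled tNCC and 387 in HH19-titled tNCC, and a log2 ratio of -0.13 within the trunk. The ratio of KIF16B lay within the SD between probe sets. For KIF13A, the other probe set was higher in HH19-titled tNCC, at 0.20, and the median over its probe sets was -0.16.

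Of the other kinesins, KIF25 separated HH9 NCC from both tNCC arrays. KIF25 had signals of 754 in HH9 NCC, 260 in HH16-titled tNCC and 253 in HH19-titled tNCC. It was 2.90-fold lower in HH16-titled tNCC and 2.98-fold lower in HH19-titled tNCC than in HH9 NCC. Among all genes, 117 of 10697 and 73 of 10643 had a smaller ratio in these comparisons. The other probe set of KIF25 lay under the floor on both tNCC arrays and at 128 in HH9 NCC, so it gives only a bound in the same direction. KIF26A, an atypical kinesin without motor activity, had 169 in HH9 NCC, 27.6 in HH16-titled tNCC and 101 in HH19-titled tNCC. It was at least 1.69-fold lower in HH16-titled tNCC than in HH9 NCC. KIF2A, a microtubule depolymerase of spindle poles and of axon branches, had 1512 in HH9 NCC, 2416 in HH16-titled tNCC and 1884 in HH19-titled tNCC. This made it 1.60-fold higher in HH16-titled tNCC than in HH9 NCC. Its other probe set, at 146, 152 and 153, had a log2 ratio of 0.05 in that comparison and did not share the difference. KIF2B, a relative of KIF2A, had 138, 203 and 129.

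Among the ciliary kinesins, KIF7, a regulator of Hedgehog signaling at the cilium tip, was brighter on both tNCC arrays. It had signals of 228 in HH9 NCC, 522 in HH16-titled tNCC and 432 in HH19-titled tNCC. It was 2.29-fold higher in HH16-titled tNCC and 1.89-fold higher in HH19-titled tNCC than in HH9 NCC. Its other probe set had log2 ratios of 0.16 and -0.27 in these comparisons, so the difference was not shared by both probe sets. KIF24, a kinesin of centrioles, had 135, 115 and 121 in HH9 NCC, HH16-titled tNCC and HH19-titled tNCC.

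All 5 chains of cytoplasmic dynein 1 had a lower signal in HH19-titled tNCC than in HH16-titled tNCC, and all 5 had a higher signal in HH16-titled tNCC than in HH9 NCC. The median log2 ratio was -0.46 for HH19-titled over HH16-titled tNCC and 0.67 for HH16-titled tNCC over HH9 NCC. Of all genes, 48.0% were lower in the first of these comparisons and 49.3% higher in the other. Both counts held with each array centred on its median, with quantile normalization and when the median of a gene's probe sets was taken. They did not hold on every probe set: the other one of DYNC1I1 had the opposite sign in both, and 1 of 3 of DYNC1I2 had a log2 ratio of 0.38 within the trunk. DYNC1H1, the heavy chain that holds the motor, had signals of 3346 in HH9 NCC, 5337 in HH16-titled tNCC and 4667 in HH19-titled tNCC. DYNC1LI2, a light intermediate chain that binds adaptors, had 1197, 2176 and 1371, and its partner gene DYNC1LI1 had 1986, 2255 and 2163. DYNC1LI2 was thus 1.82-fold higher in HH16-titled tNCC than in HH9 NCC, and DYNC1LI1 had a log2 ratio of 0.18.

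DYNC1I1, the intermediate chain enriched in neurons of mammals, had the largest differences of the dynein genes. Its signals were 71.0 in HH9 NCC, under the floor, 604 in HH16-titled tNCC and 341 in HH19-titled tNCC. It was at least 6.05-fold higher in HH16-titled tNCC and at least 3.42-fold higher in HH19-titled tNCC than in HH9 NCC. The probe set used may bind several transcripts. The other probe set of the gene was dim, with 132, 93.3 and 114, and its log2 ratios over HH9 were -0.40 and -0.21. DYNC1I2, the intermediate chain of most cells, had 2089 in HH9 NCC, 2536 in HH16-titled tNCC and 1843 in HH19-titled tNCC, and stayed within 1.5-fold on this probe set. A dimmer one of the gene had 95.2, 152 and 198.

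The light chains and dynein 2 did not all share the signs of the dynein 1 chains. DYNC2H1 did on the probe set used, with log2 ratios of 0.23 for HH16-titled tNCC over HH9 NCC and -0.01 within the trunk. Both lay within the SD between probe sets. DYNLL2, a light chain with many partners outside dynein, had 3737 in HH9 NCC, 4858 in HH16-titled tNCC and 5393 in HH19-titled tNCC. DYNLT1 had 6861, 6744 and 6080.3 on the same arrays. DYNLT3, a relative of DYNLT1, was dim, with 203, 126 and 203. DYNC2H1 and DYNC2LI1 belong to dynein 2, which moves cargo inside cilia. DYNC2LI1 had 323 in HH9 NCC, 433 in HH16-titled tNCC and 535 in HH19-titled tNCC, and DYNC2H1 had 274, 322 and 319.

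**Figure D3:**
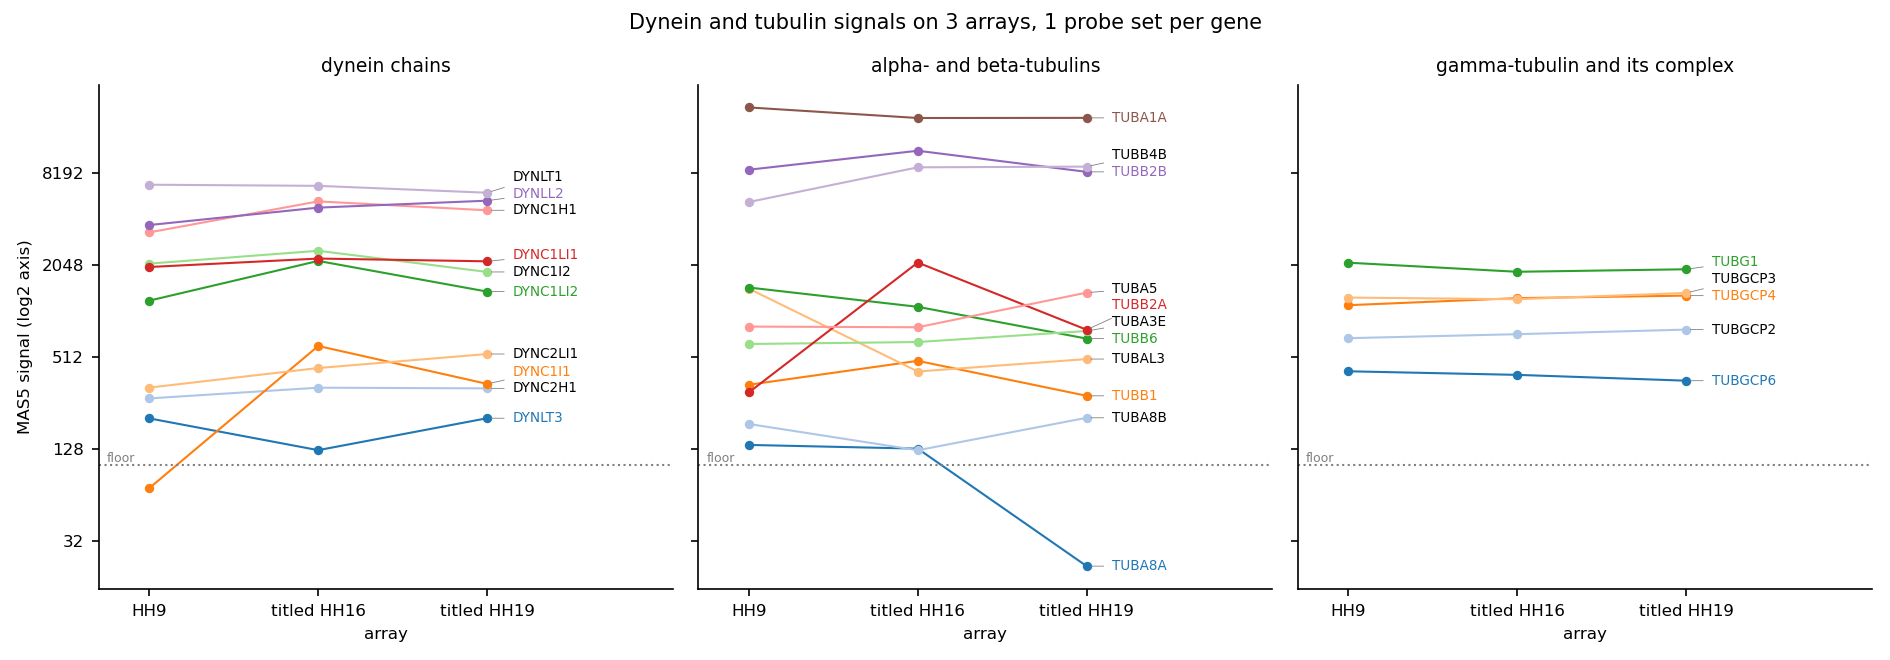
The y axis gives the MAS5 signal on a log2 axis in HH9 NCC, HH16-titled tNCC and HH19-titled tNCC, with 1 line per gene, for dynein chains (left), alpha- and beta-tubulins (middle) and the gamma-tubulin complex (right). The dotted line is the floor. DYNC1I1 and TUBB2A peak in HH16-titled tNCC, TUBAL3 is brightest in HH9 NCC, and the lines of the gamma-tubulin complex are nearly flat.

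TUBB2A had the largest differences among the tubulins. This beta-tubulin isotype, abundant in neurons, had signals of 300.3 in HH9 NCC, 2123 in HH16-titled tNCC and 771 in HH19-titled tNCC. It was 7.07-fold higher in HH16-titled tNCC and 2.57-fold higher in HH19-titled tNCC than in HH9 NCC, and 2.75-fold lower in HH19-titled tNCC than in HH16-titled tNCC. In these comparisons 68 of 10697 genes, 298 of 10643 genes and, in the downward direction, 62 of 10681 genes lay beyond it. The probe set used may bind several transcripts, and the other probe set of TUBB2A lay under the floor on all 3 arrays. TUBB3, the beta-tubulin by which neurons are stained, is not counted here as a member, and had 5174 in HH9 NCC, 9983 in HH16-titled tNCC and 4477 in HH19-titled tNCC.

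The other beta-tubulins differed by less, and in their own ways. TUBB2B, which lies beside TUBB2A in the chicken genome with 1 gene between them, had 8600 in HH9 NCC, 11443 in HH16-titled tNCC and 8327 in HH19-titled tNCC. TUBB4B, an isotype of many tissues and of cilia, had 5286, 8917 and 9012, and was 1.69-fold and 1.70-fold higher in HH16-titled and HH19-titled tNCC than in HH9 NCC. TUBB6, an isotype of non-neuronal cells, ran in the opposite order, with 1458 in HH9 NCC, 1089.9 in HH16-titled tNCC and 675 in HH19-titled tNCC. It was 2.16-fold lower in HH19-titled tNCC than in HH9 NCC. TUBB1, known in mammals from platelets, had 337, 483 and 285. Of the 5 beta-tubulins, 4 were lower in HH19-titled tNCC than in HH16-titled tNCC, and 48.0% of all genes were. The median log2 ratio of the 5 was -0.69. TUBB4B was the exception at 0.02, and it too was below 0 after quantile normalization.

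Of the 6 alpha-tubulins, 5 were higher in HH19-titled than in HH16-titled tNCC, and 52.0% of all genes were. The median log2 ratio was 0.26, which is within the SD between probe sets. After quantile normalization, and likewise with the median of a gene's probe sets, 4 of 6 were higher. Against HH9 NCC, TUBAL3 was lower on both tNCC arrays. TUBAL3, an alpha-tubulin-like gene, had signals of 1432 in HH9 NCC, 411 in HH16-titled tNCC and 496 in HH19-titled tNCC. It was 3.48-fold lower in HH16-titled tNCC and 2.89-fold lower in HH19-titled tNCC than in HH9 NCC, and has 1 probe set. TUBA1A had 21979, 18744 and 18781 and stayed within 1.5-fold. Its log2 ratio within the trunk was 0.003, and its other probe set, with 20546, 21375 and 17203, had -0.31. TUBA5 had 809 in HH9 NCC, 801 in HH16-titled tNCC and 1349.95 in HH19-titled tNCC, and both of its probe sets were higher in HH19-titled tNCC than in HH16-titled tNCC, by log2 ratios of 0.75 and 0.88. For HH19-titled tNCC over HH9 NCC the probe sets of TUBA5 had 0.74 and 1.05. TUBA3E had 622, 641 and 757. TUBA8A and TUBA8B are direct neighbours in the genome and were dim. TUBA8A had 136 in HH9 NCC, 129 in HH16-titled tNCC and 21.9, under the floor, in HH19-titled tNCC, and TUBA8B had 187, 126 and 205.

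The gamma-tubulin complex, which seeds new microtubules, differed little across the arrays on the probe sets used. TUBG1, gamma-tubulin itself, had signals of 2119 in HH9 NCC, 1848 in HH16-titled tNCC and 1919 in HH19-titled tNCC. TUBGCP2, TUBGCP3, TUBGCP4 and TUBGCP6 encode the proteins that hold it in the ring, and TUBGCP3 had 1253, 1222 and 1344. For the 5 genes, the log2 ratios lay between -0.20 and 0.21 in the 3 comparisons, and none of them passed the SD between probe sets. Some dimmer probe sets did. Among them, 1 of TUBGCP4, with signals of 329, 248 and 189, had -0.39 within the trunk and -0.41 and -0.80 over HH9, and 1 of TUBGCP3 had 0.39 and 0.38 over HH9.

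Set against HH9 NCC, the members past 2-fold were few and came from several classes. In HH16-titled tNCC, 5 of 55 members (9.09%) were at least 2-fold higher than in HH9 NCC, and 6.8% of all genes were. These 5 were TUBB2A, DYNC1I1, KIF1A, KIF7 and KIF5C. At least 2-fold lower were 2 members (3.64%), TUBAL3 and KIF25, and 3.2% of all genes. In HH19-titled tNCC, 3 of 55 (5.45%), DYNC1I1, TUBB2A and KIF1A, were at least 2-fold higher than in HH9 NCC, and 5.34% of all genes were. At least 2-fold lower were 4 members (7.27%), KIF25, TUBAL3, TUBB6 and KIF14, and 2.58% of all genes. On both tNCC arrays, 3 members were higher than at HH9, with 3.91% of 10418 genes, and 2 were lower, with 1.61%. The shares of higher members were near those of all genes.

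**Figure D4:**
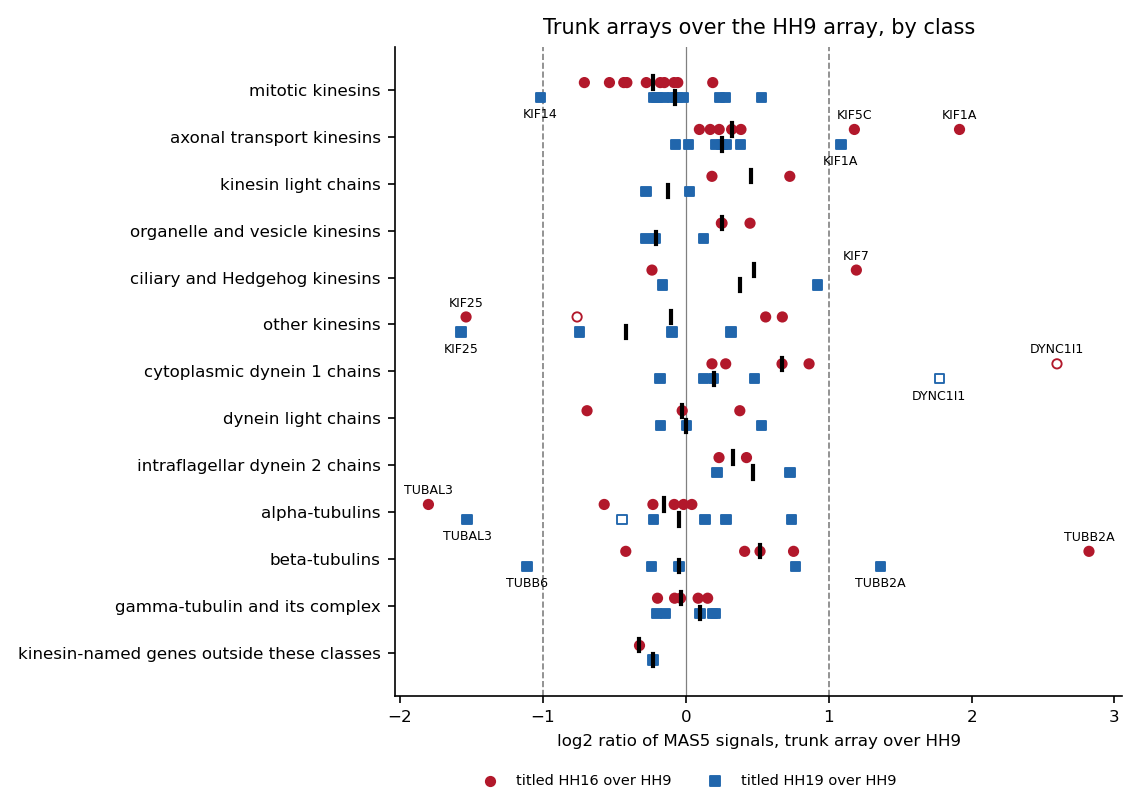
The x axis gives the log2 ratio of MAS5 signals of HH16-titled tNCC over HH9 NCC (red circles) and of HH19-titled tNCC over HH9 NCC (blue squares), by class. Each point is 1 gene, open points are lower bounds, black ticks are class medians and dashed lines mark 2-fold. DYNC1I1, TUBB2A and KIF1A lie past 2-fold to the right, and KIF25 and TUBAL3 to the left, for both tNCC arrays.

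The neuronal motor genes were also set against their widely expressed relatives, and TUBB2A against its neighbour TUBB2B. The pairs were chosen after their values were seen, so the differences are a description. For HH16-titled tNCC over HH9 NCC, the log2 ratio of KIF1A exceeded that of KIF1B by 1.68. That of KIF5C exceeded that of KIF5B by 0.79, and that of DYNC1I1, a lower bound, exceeded that of DYNC1I2 by at least 2.32, although the other probe set of DYNC1I1 had -0.40, below DYNC1I2 at 0.28. TUBB2A exceeded TUBB2B by 2.41. The SD expected of such a difference from the spread between probe sets was 0.49. For HH19-titled over HH16-titled tNCC, the differences were -0.88 for KIF1A and KIF1B, -0.67 for KIF5C and KIF5B and -0.36 for DYNC1I1 and DYNC1I2, where the SD was 0.43, and the ratios were -1.46 for TUBB2A and -0.46 for TUBB2B. The difference between the intermediate chains within the trunk was thus smaller than its SD. For HH19-titled tNCC over HH9 NCC, with an SD of 0.45, the difference was 0.80 for KIF1A and KIF1B, 0.13 for KIF5C and KIF5B, at least 1.95 for DYNC1I1 and DYNC1I2 and 1.41 for TUBB2A and TUBB2B. The probe sets with a fold in that comparison ran between 0.40 and 1.09 for KIF1A and between -0.17 and 0.60 for KIF1B. DYNC1LI2 was also set against DYNC1LI1, and KLC2 against KLC1. DYNC1LI2 differed from DYNC1LI1 by 0.68 for HH16-titled tNCC over HH9 NCC and -0.61 within the trunk, near the values of KIF5C and KIF5B. For HH19-titled tNCC over HH9 NCC it differed by 0.07. For KLC2 and KLC1 the differences were 0.54, -0.24 and 0.30 in these comparisons.

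**Figure D5:**
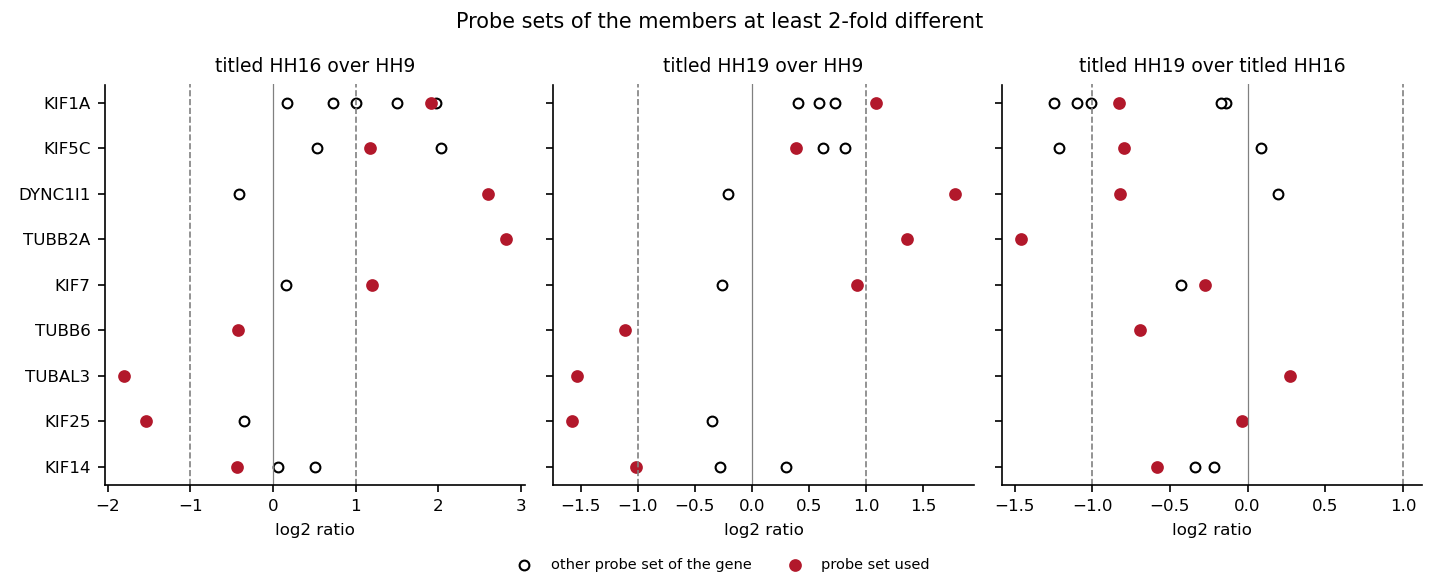
The x axis gives the log2 ratio of each probe set with a fold, for the 9 members at least 2-fold different in any comparison, in the 3 comparisons. Red points are the probe sets used, open points are other probe sets of the gene, dashed lines mark 2-fold, and ratios with 1 signal under the floor are lower bounds. The 6 probe sets of KIF1A lie on the same side, whereas those of DYNC1I1, KIF5C, KIF7 and KIF14 do not all do so in every comparison.

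The proteins that work with these motors were also compared. Of 20 adaptor genes of kinesin and dynein, 0 differed by 2-fold between the tNCC arrays, with a median log2 ratio of -0.06 for HH19-titled over HH16-titled tNCC. NDE1, a dynein regulator of dividing progenitors, had signals of 752 in HH9 NCC, 1877 in HH16-titled tNCC and 2062 in HH19-titled tNCC. It was the 1 adaptor gene past 2-fold in any comparison, with log2 ratios over HH9 of 1.32 and 1.45. A list of 22 genes held those that bind microtubules or fold tubulin, and also the beta-tubulin gene TUBB3. Of these 22, 4 were at least 2-fold lower in HH19-titled tNCC than in HH16-titled tNCC and 0 were higher. Of all genes, 1.93% were lower and 1.54% higher. These 4 were MAP1A, STMN2, STMN3 and TUBB3, and TUBB3 is also in the neuronal list. Against HH9 NCC, 9 of the 22 were at least 2-fold higher in HH16-titled tNCC and 4 in HH19-titled tNCC, as were 6.8% and 5.34% of all genes. The 9 were DCLK1, KATNA1, MAP1A, MAP1B, MAP2, STMN2, STMN3, STMN4 and TBCB. MAP1A, a neuronal microtubule-binding protein, had 349.9 in HH9 NCC, 3012 in HH16-titled tNCC and 1085 in HH19-titled tNCC. DCLK1, a kinase related to doublecortin, had 209, 1406 and 888. STMN1, which encodes the tubulin-binding protein stathmin, had 23648, 23947 and 28134, and the tubulin chaperone gene TBCA had 3003, 3638 and 3931.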

How the data were processed

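NCC of 3 arrays, those titled HH16 and HH19 and that of HH9, were analysed. The deposited intensity values are linear MAS5 signals, which the authors obtained through an outside company from Affymetrix chicken genome arrays. The sources used here give no version of MAS5. The study's methods describe 3 biological replicates and comparisons made on their mean, and do not say which of these a deposited column is. The mean signal of each array, with 2% trimmed at each end, is about 500.1. After 96 control probe sets were left out, 38439 remained, of which 27168 carry 1 gene, 177 several and 11094 none. Gene names come from the platform annotation, and all 61 members were found by gene identifier in a chicken reference table (assembly GRCg7b), which was otherwise used for neighbouring genes only. No sequences of the members were at hand.

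Signals under the floor, the 40th percentile, were raised to it before log2 ratios were formed. Differences of at least 2-fold were counted, the threshold of the study, with no p-value. A probe set whose name ends in _s_at, _x_at or _a_at may bind several transcripts. The members, classes and lists were chosen with earlier results of these data known. All members could be named, with values on every array for those past 2-fold and the 2 brightest of each class. Genes outside the members were named where they differed by 2-fold or led their list, but not all that differed by 2-fold were named. Values of further members, other probe sets, TUBB3, TBCA, CDK1, CENPE, KIFC1, MYOD1 and MYF5 were added after they were seen. The 8 alternatives are centring on the median, quantile normalization, floors at the 20th or 60th percentile, no floor, a 3-fold threshold, probe sets of 1 transcript only, and the median over a gene's probe sets. The counting was tested on simulated data. Python 3.11.15, numpy 2.4.6, pandas 2.3.3 and matplotlib 3.10.9 were used.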

Additional observations from a re-analysis of the deposited data

How the results depend on the processing

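The medians of the mitotic and of the axonal transport kinesins moved by less than the SD between probe sets under every alternative run. This is a loose check, because that SD is of single probe sets and not the error of a class median. The mitotic median of HH19-titled over HH16-titled tNCC lay between 0.19 and 0.37, and the axonal one between -0.19 and -0.08. For HH16-titled tNCC over HH9 NCC the mitotic median lay between -0.39 and -0.17, and the axonal one between 0.16 and 0.32. For HH19-titled tNCC over HH9 NCC they lay between -0.18 and -0.04 and between 0.15 and 0.27. The counts of members past 2-fold were 0 higher and 1 lower for HH19-titled over HH16-titled tNCC, 5 and 2 for HH16-titled tNCC over HH9 NCC, and 3 and 4 for HH19-titled tNCC over HH9 NCC. A floor at the 20th percentile gave for the first pair 1 (KIF26A) and 2 (TUBA8A and TUBB2A), and with no floor it was 2 (KIF6 and KIF26A) and 3 (KIF21B, TUBA8A and TUBB2A), all but TUBB2A with a signal under the main floor. With no floor 4 members (KIF6, KIF25, KIF26A and TUBAL3) were lower in HH16-titled tNCC than in HH9 NCC. With a 3-fold threshold, the lower count within the trunk was 0, the counts for HH16-titled tNCC over HH9 NCC were 3 and 1, and those for HH19-titled tNCC over HH9 NCC were 1 and 0. With probe sets of 1 transcript only, 3 members (KIF1A, KIF5C and KIF7) were higher in HH16-titled tNCC and 0 in HH19-titled tNCC than in HH9 NCC. TUBB2A then had no fold, and DYNC1I1 turned to log2 ratios of -0.40 and -0.21 over HH9, because its other probe set was read. KIF1A was then at -1.25 for HH19-titled over HH16-titled tNCC. With the median over probe sets, 1 member (TUBAL3) was lower in HH16-titled tNCC than at HH9, and 1 (TUBB2A) was higher and 2 (TUBAL3 and TUBB6) lower in HH19-titled tNCC. Centring each array on its median moved the median of all genes to -0.16 for HH16-titled tNCC over HH9 NCC and to -0.10 for HH19-titled tNCC over HH9 NCC. KIF1A was then no longer 2-fold higher in HH19-titled tNCC than in HH9 NCC, nor was it after quantile normalization. No paired analysis was possible because each group is 1 array. The spread between embryos or preparations is unknown here, and dim members near the floor, such as KIF14, KIF24 and TUBA8A, are the least certain.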

Other observations

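A further probe set, annotated to both TUBA1A and the phosphatase-family gene PTPRN and therefore left out of the members, had signals of 30806 in HH9 NCC, 26737 in HH16-titled tNCC and 30901 in HH19-titled tNCC. KIF1BP had signals of 2234 in HH9 NCC, 1784 in HH16-titled tNCC and 1910.1 in HH19-titled tNCC.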
